A study of Mus musculus with 35 samples.

Results

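The members were 10 genes by which blood vessels, lymphatic vessels and the cells around them are commonly recognised: Pecam1, Cdh5, Kdr, Vwf, Vegfa, Angpt2, Prox1, Flt4, Lyve1 and Rgs5. They were listed by name, with no threshold on measured values, and all 10 were found once each among the 36106 genes of the deposited table. Their levels were followed in mouse skin over 4 weeks after a single exposure to ionising radiation. The tissue was skin of 10-week-old female C57BL/6J mice. In the radiated groups the left flank received 25 Gy at 3.6 Gy/min over 420 s, and the treated skin was shaved after radiation. Each of weeks 1, 2, 3 and 4 had 4 radiated samples and 4 control samples of unexposed skin, and 3 samples of a sham group stood apart from the weeks, which gave 35 RNA-seq libraries in 9 groups. No genetic change is named for any group. The body site of the control skin is not given in the sources used here. The 35 samples came from 19 mice, which is the number if each control sample was taken from the mouse of the same-numbered radiated sample. A control sample is therefore taken here as skin of an irradiated animal and not of an untouched one. Whole skin was measured, so every level is an average over all cell types. Fewer vessel cells and less RNA per vessel cell cannot be told apart in it.

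Blood vessels are tubes of endothelial cells held together by junction proteins and wrapped by mural cells, that is, pericytes on capillaries and smooth muscle on larger vessels. New capillaries sprout when vascular endothelial growth factor (VEGF), released by tissue cells, binds its receptor on endothelium, while angiopoietin-2 from the endothelium loosens the contact between endothelium and pericytes. Lymphatic capillaries are built by a separate endothelium that is specified by the transcription factor Prox1 and grows in response to VEGF-C through the receptor encoded by Flt4. In skin, radiation is known to injure the microvasculature, and ulcers and fibrosis can follow.

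Each member's gene model lies on GRCm38 as annotated by GENCODE. Pecam1 (ENSMUSG00000020717) spans chr11:106654217-106750628 on the minus strand, Cdh5 (ENSMUSG00000031871) chr8:104101625-104144511 on the plus strand, Kdr (ENSMUSG00000062960) chr5:75932827-75978458 on the minus strand and Vwf (ENSMUSG00000001930) chr6:125546774-125686679 on the plus strand. Vegfa (ENSMUSG00000023951) spans chr17:46016993-46032369 on the minus strand and Angpt2 (ENSMUSG00000031465) chr8:18690263-18741562 on the minus strand, inside a region that Mcph1 also covers on the other strand with 0 exon bases shared. Prox1 (ENSMUSG00000010175) spans chr1:190118035-190170714 on the minus strand, Flt4 (ENSMUSG00000020357) chr11:49609263-49652739 on the plus strand, Lyve1 (ENSMUSG00000030787) chr7:110850607-110863239 on the minus strand and Rgs5 (ENSMUSG00000026678) chr1:169655501-169695813 on the plus strand. Prox1 shares 133 exon bases, 1.58% of its own, with its antisense gene Prox1os, and whether the library kept strand is not given in the sources used here. Reads from those bases could belong to either gene.

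The promoters of Vegfa, of its receptor gene Kdr and of the pericyte gene Rgs5 are shown because all 3 genes were called higher in radiated skin of week 4, below, and stand for a ligand, its receptor and a mural gene. Each is the 250 bases before the RefSeq transcription start on GRCm38.p6, written 5′ to 3′ on the gene's own strand. Capitals mark GGAA on either strand (TTCC when read on the other), the core of the sites bound by ETS factors, a family that endothelial genes are known to use. Vegfa lies on the minus strand with the window at chr17:46032378-46032627, Kdr on the minus strand with the window at chr5:75978456-75978705, and Rgs5 on the plus strand with the window at chr1:169655251-169655500.
Vegfa: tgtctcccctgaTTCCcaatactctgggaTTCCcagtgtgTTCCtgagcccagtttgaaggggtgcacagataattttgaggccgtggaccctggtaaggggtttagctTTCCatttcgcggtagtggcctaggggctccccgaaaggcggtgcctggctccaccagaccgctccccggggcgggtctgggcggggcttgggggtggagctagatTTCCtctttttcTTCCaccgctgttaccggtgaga
Kdr: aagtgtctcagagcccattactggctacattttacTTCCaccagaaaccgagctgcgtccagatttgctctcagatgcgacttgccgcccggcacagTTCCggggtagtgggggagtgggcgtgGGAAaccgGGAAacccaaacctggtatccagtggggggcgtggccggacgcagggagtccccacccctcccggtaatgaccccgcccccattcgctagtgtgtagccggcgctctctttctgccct
Rgs5: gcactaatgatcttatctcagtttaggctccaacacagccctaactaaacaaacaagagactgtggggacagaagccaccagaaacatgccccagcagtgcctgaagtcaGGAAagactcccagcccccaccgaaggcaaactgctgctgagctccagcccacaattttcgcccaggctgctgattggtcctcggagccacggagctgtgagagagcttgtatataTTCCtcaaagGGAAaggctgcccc
The Vegfa window shown held 6 GGAA matches, the Kdr window 4 and the Rgs5 window 3. Among the 32851 RefSeq windows of this length, 93.4% held at least 1 match, 8.69% at least 6, 33.4% at least 4 and 54.7% at least 3. The GC box GGGCGG, searched on both strands and able to share its last 2 letters with a GGAA match, occurred 2 times in the Vegfa window, 2 times in the Kdr window and 0 times in the Rgs5 window, and 32.7% of all windows held at least 1. RefSeq gives Vegfa a second start, and the 250 bases before it (chr17:46025164-46025413, not shown) held 2 GGAA matches, a number that 76.8% of windows reach, and 1 GC box. These are letter matches and not sites shown to be bound. Windows were matched for 5 of the 10 members, the other two being Prox1 and Flt4.

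Library totals ran from 17362900 to 28487900 estimated counts. Levels below are CPM, a gene's share of its library's counts scaled to a round total and adjusted between libraries by trimmed means (TMM). The lowest count of any member in any library was 55, so no member was at the detection floor of 3 counts. Fold changes are log2 values with their standard error (SE) from edgeR's quasi-likelihood test, and a gene was called where the Benjamini-Hochberg adjusted p over all genes tested was under 0.05. All 10 members passed the filter on low counts in each of the 12 comparisons. All 8 keratinocyte markers that were looked up reached 3 counts in every library. Radiated and control samples also differed in markers of other cell types, in weeks 1 and 2 as well as later. Summed skeletal muscle markers were 9885 to 23631 CPM in radiated against 26246 to 42824 in control skin in week 1. In week 2 they were 13274 to 26516.5 against 29171 to 52811. Of 8 adipocyte markers, 0 lay above 0 in week 1 (median difference -0.79). None of these markers was called in those weeks. Summed macrophage markers (10 genes) ran from 915 to 2641 CPM in radiated skin against 428 to 1048 in control skin in week 3, and from 1060 to 1766 against 256 to 415 in week 4. Summed skeletal muscle markers (8 genes) were 3314 to 8515 against 19425 to 36899 CPM in week 3, and 2019 to 4603 against 1575 to 23935 in week 4, with 7 and then 6 of the 8 called lower in radiated skin. The week 4 ranges overlapped through control sample 1, and the other controls were at 10818 CPM or more. Summed hair follicle markers (11 genes) were 32.5 to 5818 against 47.6 to 62.0 CPM in week 4, with 6 of the 10 tested called higher in radiated skin. Summed fibroblast markers (8 genes) were 28154 to 47314 against 2363 to 4837 CPM in week 4. The part of these differences in the vessel genes' values was not tested.

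Calls among the vessel genes came in weeks 3 and 4, as did nearly all calls over all genes. Against control skin of the same week, the members called were 0, 0, 3 and 8 of the 10 in weeks 1 to 4, and all calls were higher in radiated skin. Over all genes tested the share called was 0%, 0.00577%, 27.2% and 48.4% in those weeks, and the share called higher was 13.6% in week 3 and 24.2% in week 4. In weeks 1 and 2 this test thus called almost no gene. With the mouse as a block it called 0 of 17578 genes in week 1 and 641 of 17345 in week 2, DESeq2's Wald test called 423 and 734, and a single fit of all groups called 23 and 544. Lyve1 was the 1 member among the week 2 calls of the block. Without adjustment, p was under 0.05 for 3, 2, 6 and 9 members. Over all genes that held for 2477 of 17578, 2388 of 17345, 7169 of 17653 and 9865 of 17850. The median member difference was -0.42, 0.10, 0.67 and 0.90 in weeks 1 to 4 (log2), beside 0.05, -0.00, 0.08 and 0.02 over all genes tested. In week 1 only Lyve1 had a positive difference among the 10, and in week 4 all 10 did. The radiated sample was the higher in 0 of 4 pairs of week 1 for Pecam1, Cdh5, Vegfa and Rgs5, and in 1 or 2 for each other member. Scaling by total counts instead of TMM raised the median of all genes by 0.24 in week 3. The count of called members rose to 7, with Cdh5, Kdr, Prox1 and Flt4 added, beside 5324 of all 17653 genes. Without radiated sample 4 the week 3 count was 5, with Cdh5 and Kdr added, beside 5071 of all 17929 genes. DESeq2's Wald test called 0, 1, 4 and 9 members in the 4 weeks. Of all genes it called 6024 of 17653 in week 3 and 9175 of 17850 in week 4.

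**Figure D1:**
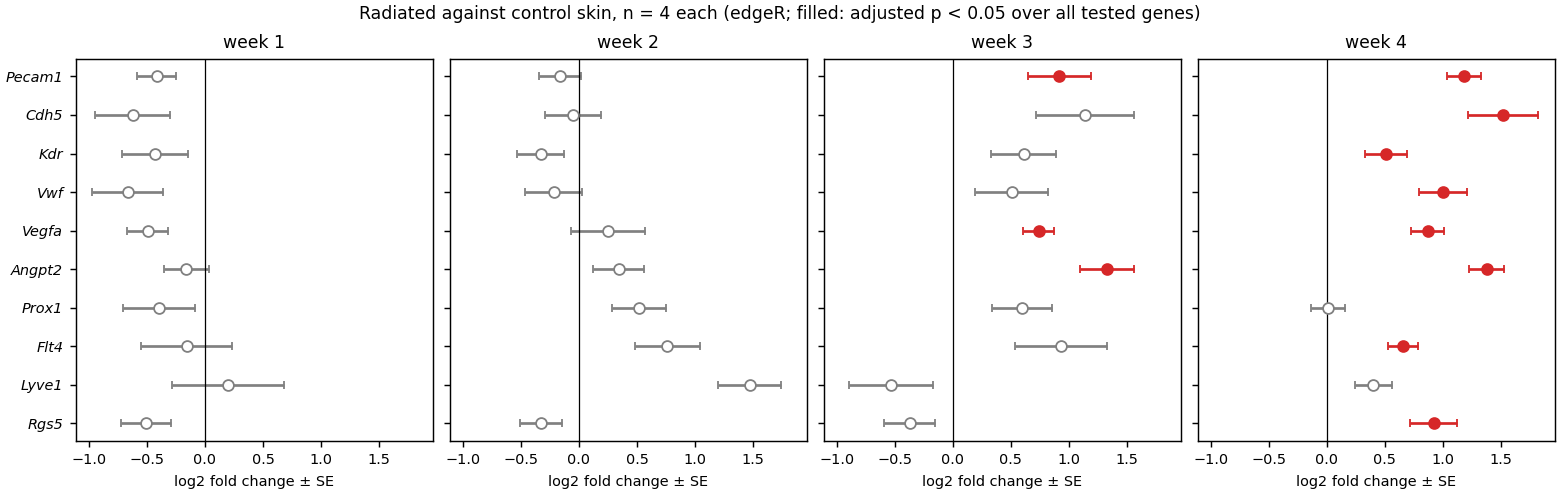
Log2 fold change of each of the 10 members in radiated against control skin (1 panel a week; horizontal axis: log2 fold change with SE bars; filled red points are called at an adjusted p under 0.05). Calls appear in weeks 3 and 4 only, 3 and then 8 of the 10 members, all above 0.

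Pecam1 encodes CD31, an adhesion protein at endothelial junctions that leukocytes and platelets carry too. In week 3 its level was 185, 95.4, 178 and 77.7 CPM in the radiated samples and 74.5, 67.5, 68.0 and 80.1 in the controls. Radiated samples 1 and 3 stood above the other two, and the lowest radiated sample lay within the control range. The difference was 0.92 (SE 0.275, adjusted p = 0.0345, higher in 3 of 4 pairs). With the mouse as a block it was 0.82 with an adjusted p of 0.0733, and the call was lost when radiated sample 1, radiated sample 3 or any 1 of the 4 control samples was left out (adjusted p 0.0667 to 0.0863). In week 4 the radiated samples were at 164, 156, 165 and 193 CPM and the controls at 93.1, 61.3, 64.4 and 81.3, with no overlap. That difference was 1.18 (SE 0.143, adjusted p = 0.00012). Leukocyte markers (8 genes, of which 6 to 8 reached 3 counts) summed to 460 to 675 CPM in radiated and 114 to 131 in control skin in week 4, and their part in the Pecam1 difference was not tested.

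Cdh5 encodes VE-cadherin, the cadherin of endothelial junctions. In week 3 it was at 69.9, 29.4, 94.0 and 22.9 CPM in radiated skin and at 26.1, 21.1, 20.3 and 33.0 in control skin. Samples 1 and 3 were again the high ones and the groups overlapped, and the difference of 1.14 (SE 0.422) had an adjusted p of 0.0714. It passed the threshold without radiated sample 2 or 4 (adjusted p 0.0189 to 0.0491), and in 5 of 14 alternative fits in all. In week 4 radiated skin gave 54.9, 48.1, 78.0 and 72.2 CPM and control skin 31.7, 15.8, 12.3 and 28.7. Every radiated sample lay above every control, and the difference was 1.52 (SE 0.301, adjusted p = 0.00239), the widest of the 10 members in that week.

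Kdr encodes VEGFR2, the main receptor through which VEGF-A acts on endothelium. Its week 3 levels were 105, 65.7, 74.2 and 43.6 CPM in radiated skin against 38.9, 68.5, 41.4 and 44.4 in control skin, with a difference of 0.61 (SE 0.280, adjusted p = 0.133). In week 4 they were 98.9, 82.4, 83.7 and 111 against 83.9, 66.2, 44.7 and 71.0 CPM. The groups touched, since radiated samples 2 and 3 lay just under control sample 1, although the radiated sample was the higher in 4 of 4 pairs. The difference was 0.51 (SE 0.183, adjusted p = 0.0428), the smallest called. It was lost when all groups were fitted together (adjusted p = 0.158) and when radiated sample 1 or 4 or control sample 2, 3 or 4 was left out (0.0577 to 0.112).

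Vwf encodes von Willebrand factor, the clotting glycoprotein stored in endothelial cells, and in platelets as well. In week 3 it was at 68.0, 29.1, 97.7 and 49.1 CPM in radiated skin and at 40.0, 52.0, 42.6 and 40.7 in control skin, with a difference of 0.51 (SE 0.315, adjusted p = 0.258). In week 4 radiated skin gave 86.2, 85.9, 118 and 107 CPM and control skin 71.3, 35.3, 43.0 and 49.6, with no overlap. The week 4 difference was 1.00 (SE 0.206, adjusted p = 0.00293). Platelet markers (6 genes, all 6 at 3 counts or more in these samples) summed to 23.9 to 46.2 CPM in radiated and 11.7 to 16.7 in control skin in that week, and their part was not tested. Pecam1, Cdh5, Kdr and Vwf were all called in week 4. In week 3, when Pecam1 alone of them was called, radiated samples 1 and 3 were the highest for each of the 4 genes. The same samples were the highest in summed leukocyte markers, at 1041, 695, 970 and 358 CPM in radiated samples 1 to 4 and 138 to 304 in controls. They were also the highest in summed platelet markers, at 94.4, 41.1, 85.1 and 25.0 CPM against 15.8 to 21.1, and the part of either in the week 3 values was not tested.

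**Figure D2:**
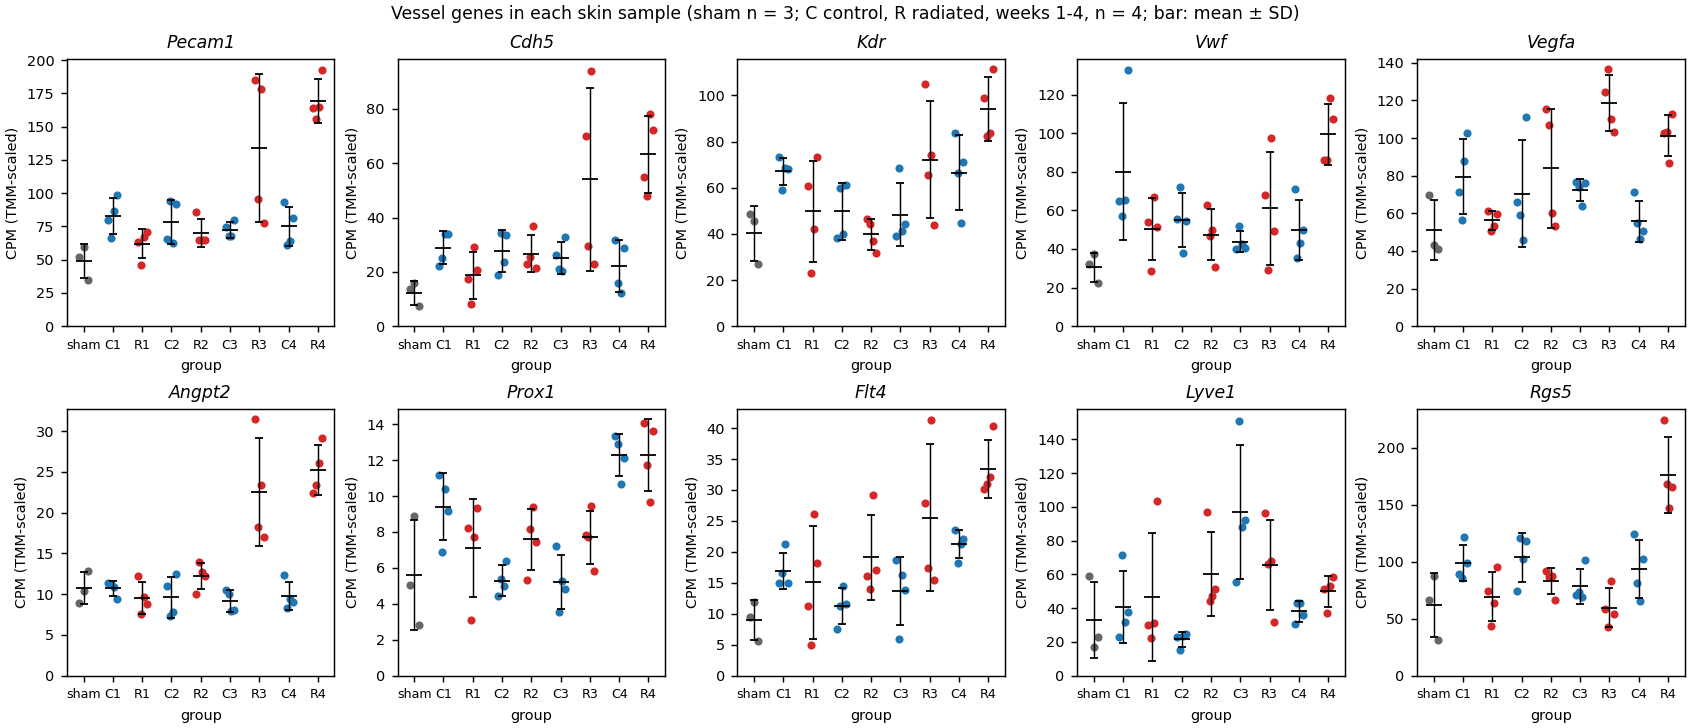
Level of each of the 10 members in every library (horizontal axis: group, with C for control and R for radiated and the week's number; vertical axis: CPM; each point is 1 sample, bars are mean ± SD). Radiated samples of week 4 lie above their controls without overlap for Pecam1, Cdh5, Vwf, Vegfa, Angpt2, Flt4 and Rgs5, and Prox1 is close between the arms in that week. The share of all genes without overlap was not counted, and 48.4% of all genes tested were called in that week.

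The 2 secreted members were called in both week 3 and week 4. Vegfa encodes VEGF-A, the growth factor that drives sprouting and is made by keratinocytes, macrophages and fibroblasts among others. In week 3 it was at 124, 137, 110.2 and 103 CPM in radiated skin and at 76.5, 73.8, 63.7 and 76.0 in control skin. No samples overlapped, and the difference was 0.74 (SE 0.133, adjusted p = 0.00448). In week 4 the levels were 102, 103, 86.7 and 113 against 71.5, 54.7, 46.3 and 50.4 CPM, again without overlap, and the difference was 0.87 (SE 0.141, adjusted p = 0.000718). In week 2 the radiated samples split, with 115 and 107 CPM in samples 1 and 2 and 60.4 and 53.2 in samples 3 and 4, against 66.2, 58.8, 45.6 and 111 in controls (difference 0.25, SE 0.318, adjusted p = 0.772). In week 1 the sign was the other way, with 50.6 to 61.0 CPM in radiated and 56.6 to 103 in control skin and a difference of -0.50 (SE 0.180, adjusted p = 0.279).

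Angpt2 encodes angiopoietin-2, which endothelial cells release when vessels remodel. It ran between 7.27 and 14.0 CPM in the sham group, in all control groups and in radiated skin of weeks 1 and 2. In week 3 it rose to 31.5, 18.3, 23.3 and 17.0 CPM in radiated skin while the controls stood at 10.6, 10.1, 7.95 and 8.05, and the difference was 1.33 (SE 0.230, adjusted p = 0.00388). In week 4 it was at 22.4, 23.4, 26.1 and 29.2 against 12.3, 8.36, 9.44 and 8.99 CPM, and the difference was 1.38 (SE 0.149, adjusted p = 6.05e-05). All 8 radiated samples of weeks 3 and 4 lay above every other library of the study. Per sample, its ratio to Cdh5 overlapped between radiated and control skin in every week. In week 4 the log2 ratio was -1.30 ± 0.22 in radiated and -1.08 ± 0.56 in control skin (SD, n = 4, exact permutation p = 0.543 before adjustment).

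Of the 3 lymphatic members, Flt4 alone was called, in week 4. Prox1, the transcription factor that sets lymphatic identity, had the lowest level per exon length of the 10 in the groups compared on that scale below. It was higher in the radiated sample of 4 of 4 pairs in week 2 (5.35, 8.18, 9.39 and 7.46 against 4.41, 5.38, 4.98 and 6.41 CPM) and in week 3 (7.82, 7.74, 9.44 and 5.85 against 7.20, 3.56, 5.25 and 4.85). The groups overlapped in both weeks, and the differences of 0.52 (SE 0.233) and 0.59 (SE 0.257) had adjusted p-values of 0.363 and 0.113. In week 4 the means of both arms were the highest of the 9 groups and close to each other, at 14.1, 11.7, 9.68 and 13.6 CPM in radiated and 13.3, 12.9, 10.7 and 12.1 in control skin. The week 4 difference was 0.01 (SE 0.148, adjusted p = 0.97).

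Flt4 encodes VEGFR3, the receptor of VEGF-C, found on lymphatic endothelium and on sprouting blood capillaries. In week 2 it was at 16.2, 14.0, 29.2 and 17.1 CPM in radiated skin and at 7.55, 11.3, 14.5 and 11.6 in control skin, a difference of 0.76 (SE 0.277, adjusted p = 0.265). In week 3 the levels were 27.9, 17.4, 41.3 and 15.5 against 18.6, 5.94, 16.3 and 13.9 CPM, a difference of 0.93 (SE 0.398, adjusted p = 0.109). In both weeks the radiated sample was the higher of every pair while the groups overlapped. In week 4 they no longer overlapped, at 30.2, 30.9, 32.1 and 40.3 against 23.6, 18.2, 21.4 and 22.0 CPM, and the difference of 0.66 (SE 0.127) was called (adjusted p = 0.00206). Fitting all groups together gave an adjusted p of 0.166 for it.

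Lyve1 encodes a hyaluronan receptor of lymphatic capillaries that a set of resident macrophages carries too. In week 1 it was at 29.9, 22.3, 31.4 and 103 CPM in radiated and 22.8, 71.6, 31.7 and 37.6 in control skin. In week 2 it was at 97.3, 44.4, 47.3 and 51.5 CPM in radiated and 23.0, 15.2, 23.7 and 24.7 in control skin. The week 2 groups did not overlap, and Lyve1 was the only member of which that held before week 3. The share of all genes without overlap was not counted. The difference was 1.47 (SE 0.274), with an adjusted p of 0.118 that became 0.0165 with the mouse as a block. In week 3 the difference was below 0, with 96.5, 66.1, 67.7 and 31.8 CPM in radiated and 55.8, 151, 88.2 and 92.5 in control skin (difference -0.54, SE 0.363, adjusted p = 0.297). In week 4 it was at 51.1, 37.2, 53.1 and 58.6 against 30.5, 42.9, 42.9 and 35.9 CPM (difference 0.40, SE 0.158, adjusted p = 0.0600).
All 10 macrophage markers reached 3 counts in every library, and their sum was 513 to 2064 CPM in radiated and 226 to 613 in control skin in week 2. In week 3, 5 of the 10 macrophage markers were called higher in radiated skin and 1 lower, with a median difference of 1.15. The scavenger and mannose receptor genes Cd163 and Mrc1 averaged 510.5 and 609.9 CPM in radiated and 217 and 231 in control skin in that week, and the folate receptor gene Folr2 11.6 and 8.64. Timd4, a receptor of resident macrophages picked out after its values were seen, went the other way, at 1.93 to 3.64 CPM in radiated and 4.10 to 17.5 in control skin. The part of macrophages in the Lyve1 values was not tested. The week 4 difference was called without radiated sample 2 (adjusted p = 0.0119), with total-count scaling (0.0271) and by DESeq2 (0.0452), and the week 2 difference without radiated sample 2.

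Rgs5 encodes a regulator of G protein signalling and marks pericytes. In week 1 it was at 74.3, 43.3, 63.7 and 95.1 CPM in radiated and 88.9, 86.0, 121 and 98.8 in control skin, and in week 2 at 92.1, 87.0, 87.5 and 66.3 against 74.3, 121, 103 and 118. In week 3 it was at 58.3, 42.4, 83.0 and 53.8 CPM in radiated and 70.4, 73.3, 68.6 and 101 in control skin. In these 3 weeks the difference was below 0 but not called, at -0.51 (SE 0.218, adjusted p = 0.332), -0.32 (SE 0.179, adjusted p = 0.463) and -0.37 (SE 0.219, adjusted p = 0.232). In week 4 Rgs5 reached 224, 168, 147 and 165 CPM in radiated skin and 124, 81.7, 65.9 and 102 in control skin. All 4 radiated samples lay above every other library of the study, and the difference was 0.92 (SE 0.202, adjusted p = 0.0041). Without radiated sample 3 the week 3 difference widened to -0.58 and passed the threshold (adjusted p = 0.0498).

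The change of the radiated-to-control difference over the 4 weeks was tested for each gene as a week by radiation interaction. It was called for 6 of the 10 members, against 15.6% of all genes tested. These were Angpt2 (adjusted p = 0.000356), Pecam1 (0.000552), Rgs5 (0.00432), Vegfa (0.0109), Cdh5 (0.0120) and Vwf (0.0268). Kdr (0.0783), Lyve1 (0.0736), Prox1 (0.123) and Flt4 (0.361) were not called. With the mouse as a block the Prox1 interaction had an adjusted p of 0.0379, and no other member crossed the threshold. The number called fell to 2 without the samples numbered 2 and to 3 without those numbered 3.

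Ratios within a library compare members without the scaling between libraries. For 4 ratios in 4 weeks, 16 exact permutation tests were made, two-sided, with 4 against 4 samples, for which 0.0286 is the smallest p possible. After Benjamini-Hochberg adjustment over the 16, a ratio could pass only if most of them separated fully, so the smallest adjusted p of 0.229 was nearly set by the design and the ratios are read as values. The log2 ratio of Prox1 to Cdh5 in week 4 was -2.35 ± 0.48 (SD, n = 4) in radiated and -0.74 ± 0.57 in control skin with no overlap, a difference of -1.60 (exact p = 0.0286). The log2 ratio of Rgs5 to Cdh5 in week 3 was 0.33 ± 0.70 against 1.65 ± 0.16, also without overlap (difference -1.32, exact p = 0.0286). In week 4 that ratio was 1.48 ± 0.52 against 2.14 ± 0.29, overlapping (exact p = 0.114). The log2 ratio of Lyve1 to Prox1 was 0.92 higher in radiated skin in week 2 (exact p = 0.0571) and 1.16 lower in week 3 (exact p = 0.0857).

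**Figure D3:**
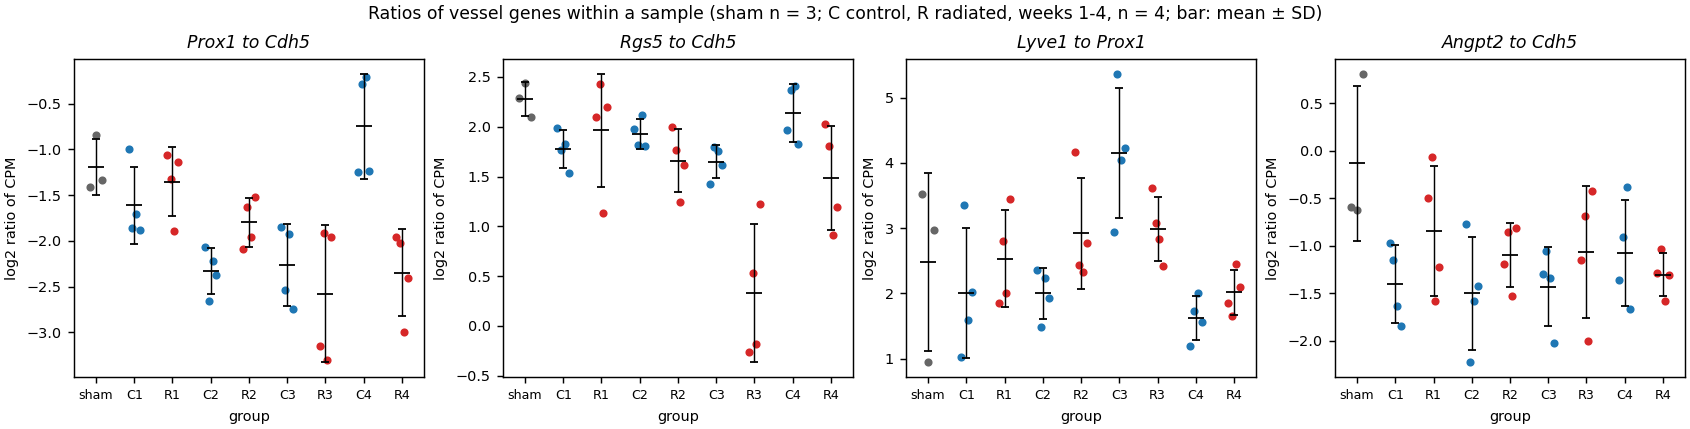
Log2 ratio of 2 members within each library, by week (horizontal axis: group, C control and R radiated; vertical axis: log2 ratio of CPM; points: samples; bars: mean ± SD). The radiated and control points separate fully for Prox1 to Cdh5 in week 4 and for Rgs5 to Cdh5 in week 3, and overlap in the other weeks and ratios.

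The other genes of vessel biology were read from 6 lists that together held 95 genes, of which 93 could be tested in weeks 3 and 4. In week 1 and in week 2 none was called by edgeR's test (21 and 26 had an unadjusted p under 0.05), and DESeq2's Wald test called 6 in each. Over all genes, 2477 of 17578 and 2388 of 17345 had an unadjusted p under 0.05, and DESeq2 called 423 and 734. With the mouse as a block 8 list genes were called in week 2, beside 641 of all 17345 genes. In week 3, 30 rose and 10 fell, beside 13.6% of all genes higher and 13.6% lower. In week 4, 52 rose and 16 fell, beside 24.2% of all genes higher and 24.2% lower. The median difference over the lists was 0.45 in week 3 and 0.66 in week 4, beside 0.08 and 0.02 over all genes.

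Most of the other endothelial genes rose in week 4, as Pecam1 and Cdh5 did. Of 24 tested, 8 rose and 1 fell in week 3 (median 0.71), and 19 rose and 1 fell in week 4 (median 1.00). Eng, the endothelial TGF-beta co-receptor endoglin, rose by 1.73 in week 4 (SE 0.279, adjusted p = 0.000688), and by 1.73 in week 3 with an adjusted p of 0.0267 that became 0.0589 with the block. Sox18, a transcription factor of both endothelia, and Ecscr, a surface protein of endothelium, rose by 1.71 and 1.45 in week 3 (adjusted p = 0.0430 and 0.0379), which became 0.099 and 0.0579 with the block. Plvap, the diaphragm protein of fenestrated capillaries, rose by 1.78 in week 4 (adjusted p = 0.000657). Mmrn2, an extracellular matrix protein of the endothelium, rose by 1.54 in week 4 (adjusted p = 0.000953). Cd34, which fibroblasts and stem cells of skin share with endothelium, fell by 1.29 in week 3 and by 0.86 in week 4 (adjusted p = 0.00734 and 5.94e-05).

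Genes of arterial, venous and sprouting endothelium had the highest median of the lists. Of 16 tested, 8 rose and 0 fell in week 3 (median 1.44), and 11 rose and 2 fell in week 4 (median 2.11). Apln, the apelin peptide of tip cells, rose by 4.27 in week 3 and 4.23 in week 4 (SE 0.561 and 0.255, adjusted p = 0.00164 and 3.27e-06). Its receptor gene Aplnr, a venous and sprouting endothelial gene, rose by 2.68 in week 3 (adjusted p = 0.0109). Selp, the P-selectin by which venules and platelets bind leukocytes, rose by 2.13 and then by 3.99 (adjusted p = 0.00929 and 8.99e-06). Vcam1, an adhesion molecule of activated endothelium that other stromal cells carry too, rose by 3.81 in week 4 (adjusted p = 5.9e-06). The arterial gene Efnb2, which encodes ephrin-B2, fell by 1.28 in week 4 (adjusted p = 4.58e-05). Hey1, a Notch target, fell by 0.51 (adjusted p = 0.0416), which with the block became 0.067.

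Other lymphatic genes went both ways. Of 12 tested, 4 rose and 2 fell in week 3 (median 0.04), and 4 rose and 5 fell in week 4 (median -0.44). Pdpn, podoplanin, rose by 2.68 and 3.39 (adjusted p = 0.00399 and 2.22e-06), and fibroblasts and keratinocytes are known to make it too. Itga9, an integrin of lymphatic valves, rose by 1.67 and 1.58 (adjusted p = 0.00592 and 4.08e-06). Nrp2, a co-receptor of VEGF-C, rose by 1.22 in week 4 (adjusted p = 0.00017). Sema3d, a secreted guidance factor, fell by 3.23 and 3.09 (adjusted p = 0.000641 and 8.41e-06). Ackr4, a chemokine-scavenging receptor, fell by 1.66 and 2.20 (adjusted p = 0.0138 and 5.77e-06). Mmrn1, a multimerin of lymphatic endothelium and platelets, fell by 1.26 in week 4 (adjusted p = 0.00038).

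Other mural genes were called lower more often than higher. Of 13 tested, 1 rose and 5 fell in week 3 (median -0.24), and 1 rose and 6 fell in week 4 (median -0.41). The gene that rose was Pdgfrb in both weeks, the receptor by which endothelium recruits pericytes and which fibroblasts also carry, by 1.52 and 1.95 (adjusted p = 0.0152 and 3.87e-06). Among genes of the contractile apparatus of smooth muscle, Lmod1 fell by 2.82 and 2.35 and Myh11 by 1.44 and 1.63 in weeks 3 and 4 (adjusted p = 0.000748, 0.000292, 0.0014 and 7.41e-06), and Cnn1 by 1.48 in week 4 (adjusted p = 0.000526). Acta2, smooth muscle actin, differed by -0.02 and -0.23 and Tagln, transgelin, by -0.24 and -0.24, and neither was called in either week (adjusted p = 0.933, 0.177, 0.333 and 0.183). These last 2 genes were picked out after their values were seen. Abcc9, a potassium channel subunit of pericytes that striated muscle shares, fell by 1.52 in week 3 (adjusted p = 0.00284). Skeletal muscle markers were called lower in radiated skin for 7 of 8 genes in week 3 and 6 of 8 in week 4 (median -2.30 and -2.27), and their part in these differences was not tested.

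All called genes among the other secreted vessel factors rose, as Vegfa and Angpt2 did. Of 15 tested, 6 rose and 0 fell in week 3 (median 0.85), and 10 rose and 0 fell in week 4 (median 1.00). Angptl4, an angiopoietin-like factor that also inhibits lipoprotein lipase, rose by 2.33 in week 3 (adjusted p = 0.00765). Pgf, the placental growth factor of the VEGF family, rose by 2.37 in week 3 (adjusted p = 0.0163, and 0.0623 with the block). Ccbe1, which helps to activate VEGF-C, rose by 1.99 and 2.28 (adjusted p = 0.00276 and 2.24e-05). Thbs1 and Thbs2, the thrombospondins, which restrain sprouting, rose by 2.80 and 2.12 in week 4 (adjusted p = 6.88e-06 and 3.98e-05). The list therefore held rises both of factors that promote and of factors that hold back vessel growth.

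Genes of the hypoxia response, to which Vegfa belongs, were mixed. Of 14 tested, 4 rose and 2 fell in week 3 (median 0.13), and 8 rose and 2 fell in week 4 (median 0.67). Slc2a1, the glucose transporter GLUT1, rose by 1.37 and 1.29 (adjusted p = 0.00175 and 7.6e-06), and Pfkfb4, an enzyme that sets the rate of glycolysis, by 1.18 and 1.40 (adjusted p = 0.00576 and 0.000187). Bnip3, a mitophagy receptor, fell by 0.89 and 0.70 (adjusted p = 0.0326 and 0.0230). Ankrd37 rose by 1.17 and the oxygen sensor gene Egln1 fell by 0.52 in week 3 (adjusted p = 0.0284 and 0.0342), and a second sensor gene, Egln3, rose by 0.95 in week 4 (0.0429), calls that became 0.0786, 0.0749 and 0.126 with the block. The histone demethylase gene Kdm3a fell by 0.53 in week 4 (adjusted p = 0.000178).

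**Figure D4:**
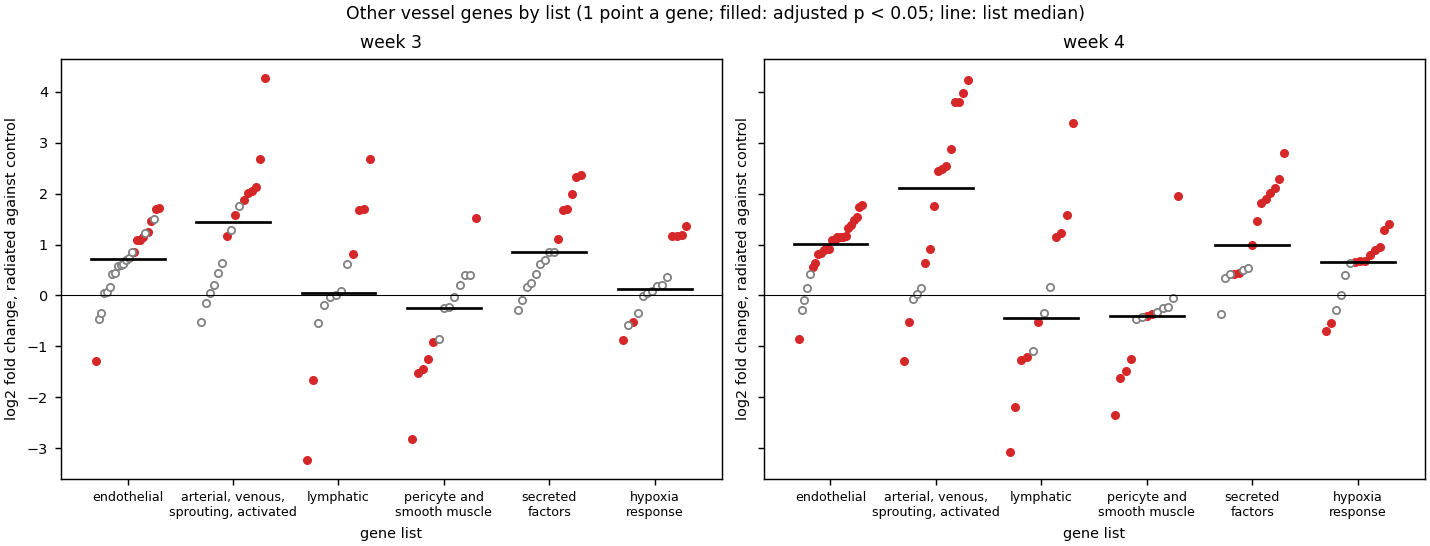
Log2 fold change in radiated against control skin of every tested gene in 6 lists of vessel biology, weeks 3 and 4 (horizontal axis: list; vertical axis: log2 fold change; each point is 1 gene, filled red where called; the line is the list's median). The arterial, venous and sprouting list has the highest median in both weeks, 1.44 and 2.11, and the lymphatic and mural lists have medians of -0.44 and -0.41 in week 4.

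Set against the sham group, radiated skin gave 0, 0, 5 and 9 of the 10 members called in weeks 1 to 4, all higher. The share of all genes called was 1.75%, 5.06%, 18.2% and 26.7%, and the share called higher was 10.4% in week 3 and 15.2% in week 4. The 5 of week 3 were Cdh5 (difference 2.18, adjusted p = 0.0276), Flt4 (1.54, 0.0357, and 0.0632 with the replicate number as a block), Pecam1 (1.50, 0.0252), Vegfa (1.26, 0.0113) and Angpt2 (1.12, 0.0248). In week 4 the differences of the called members ran from 1.03 for Vegfa to 2.41 for Cdh5, and Lyve1 alone was not called (0.64, SE 0.392, adjusted p = 0.263). Prox1, close between radiated and control skin in that week, was at 5.03, 8.88 and 2.84 CPM in the sham samples and 1.17 higher in radiated skin (SE 0.361, adjusted p = 0.0432), a call that was lost without sham sample 1 or 3 or radiated sample 1, 2 or 4 (0.0665 to 0.109). Control skin was itself higher than sham for some members. Cdh5 (1.23, SE 0.280, adjusted p = 0.0467) and Vwf (1.38, SE 0.318, adjusted p = 0.0471) were called in week 1 and Flt4 (1.22, SE 0.245, adjusted p = 0.0370) in week 4. In weeks 2 and 3, 0 members were called, 4 and 5 had an unadjusted p under 0.05, and DESeq2 called 3 in each. Over all genes, 3765 of 17855 and 5311 of 17907 had an unadjusted p under 0.05 in those weeks, and DESeq2 called 1956 and 3594. For radiated skin against sham, 1 and 4 members had an unadjusted p under 0.05 in weeks 1 and 2, and DESeq2 called 0 and 2. Of all genes, 3021 of 18228 and 4261 of 18036 had such a p, and DESeq2 called 1238 and 2482. Over all genes the share called in control against sham was 4.92%, 2.44%, 11.4% and 3.65% in weeks 1 to 4, and the share higher was 3.28% in week 1 and 1.76% in week 4.

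The sham comparisons rest on 3 libraries, and sham samples 2 and 3 stood above every other library in hair follicle genes. Summed hair markers (11 genes) were 2145, 27663 and 33365 CPM in the sham samples, against 32.3 to 6722 in control skin of week 1, 47.6 to 62.0 in control skin of week 4 and 32.5 to 5818 in radiated skin of week 4. Sham sample 1 lay below 1 control sample each of weeks 1 and 2 and 1 radiated sample of week 4. Control skin of week 1 also stood above sham in muscle and adipocyte markers, with 6 of 8 called higher in each (median 1.54 and 1.77). In radiated skin of week 4, 7 of 8 fibroblast and 8 of 10 macrophage markers were called higher than in sham, and 7 of 8 muscle markers lower. The part of these differences in the vessel genes was not tested. The radiated and the control comparisons with sham share the sham libraries, so they are not independent of each other. The 5 members called in radiated skin of week 3 became 1 without sham sample 2, sham sample 3 or radiated sample 1, 2 without sham sample 1 and 3 without radiated sample 3. The 2 called in control skin of week 1 became 0 without sham sample 2 or 3 or control sample 2, 3 or 4. The Flt4 call in control skin of week 4 was lost without sham sample 3 or any 1 of the 4 control samples.

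Ordered by mean level over the 9 groups, radiated skin of week 4 stood highest for Pecam1, Cdh5, Kdr, Vwf, Angpt2, Prox1, Flt4 and Rgs5. For Vegfa it was radiated skin of week 3 (119 ± 14.9 CPM, SD, n = 4) and for Lyve1 control skin of week 3 (96.9 ± 39.7 CPM). Nearly all neighbours in these orders overlapped in their sample values. The exceptions were Rgs5 in radiated week 4 (176 ± 33.6 CPM) above control week 2 (104 ± 21.2), Angpt2 in radiated week 3 (22.5 ± 6.59) above radiated week 2 (12.2 ± 1.64), and Vwf in control week 3 (43.8 ± 5.57) above sham (30.5 ± 7.57, n = 3). The sham group was lowest for Pecam1 (48.9 ± 12.6 CPM), Cdh5 (12.3 ± 4.51), Vwf, Vegfa (51.2 ± 16.0) and Flt4 (9.04 ± 3.20). Per kilobase of exon, Rgs5 was the most abundant member in sham, control week 4 and radiated week 4 skin (13.6, 20.5 and 38.7 CPM per kb) and Prox1 the least (0.67, 1.46 and 1.46 CPM per kb).

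Across the 35 libraries, which share the same groups and scaling, the members' courses were compared by Pearson correlations of log2 CPM, given as descriptions. Pecam1 and Cdh5 stood at 0.93. Flt4 stood about as near to Cdh5 (0.79) and Pecam1 (0.74) as to Prox1 (0.80), and Prox1 with Kdr stood at 0.68. Lyve1 stood at 0.01 with Prox1 and -0.00 with Rgs5. Over the 12533 genes whose average level reached 5 CPM, those nearest to Cdh5 were Epas1 (0.94), Pecam1 and Plvap (0.91). Those nearest to Rgs5 were Gng11 (0.85), Adgrl4 (0.84) and Aqp1 (0.82). Those nearest to Vegfa were Cd93, Fam126a and Swap70 (0.77, 0.76 and 0.76), a looser match, and those nearest to Lyve1 were Ifi211, Phf11d and Rbpj (0.82, 0.80 and 0.78).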

How the data were processed

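RNA-seq was made from 35 skin samples. The authors deposited 1 table of estimated counts per gene, not scaled between samples. Trim Galore 0.6.7, kallisto 0.46.2 and the mm10 build are named, per the submitters' processing notes. The transcript release and the step from transcripts to genes are not given in the sources used here. Kallisto shares reads between similar transcripts, so some values were not whole.

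Estimated counts were rounded, filtered with filterByExpr, scaled by TMM and tested with edgeR 4.0.16 (R 4.3.3, quasi-likelihood F test, Benjamini-Hochberg adjustment, threshold 0.05), each fit on the groups compared. The interaction was fitted on the radiated and control samples of all weeks. Levels are counts per library total (CPM) with TMM factors from all 35 libraries, and ratios use log2 CPM with a prior count of 2. DESeq2 1.42.0, total-count and RLE scaling, no filter, a single fit of all samples, a replicate block and leaving out each library were the alternatives. Total counts of 17362900 to 28487900 per library put 3 counts at 0.105 to 0.173 CPM. On simulated week 3 data (17423 genes, of which 194 were changed) the test recovered 16.2% of genes changed 2-fold and 82.1% of those changed 4-fold.

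The number in the labels pairs a radiated with a control sample of the same week. That both come from 1 mouse follows from the 19 mice given in the series' design text for 35 samples. Deviations from the group means correlated at 0.07, 0.17, 0.05 and -0.02 on average between same-numbered samples in weeks 1 to 4. Between others they correlated at -0.02, -0.06, -0.02 and 0.01. Centring each group on its mean nearly fixes these last values from the first, so they are no separate comparison and do not bear on the pairing. No label says that the mice were housed or processed separately, and p-values measure the spread between these samples.

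The members and lists were chosen with earlier results of these data known. All 10 members are named in each radiated against control comparison. Of each list, up to 3 genes per direction and week are named, those with the largest change among called genes of at least 1 CPM on average, and for Cdh5, Vegfa, Lyve1 and Rgs5 the 3 genes with the most similar course. The lists held general endothelial, arterial, venous and sprouting, lymphatic, mural, secreted factor and hypoxia genes. Figf, an older symbol, was not matched. Marker sums were made for macrophages, leukocytes, platelets, fibroblasts, muscle, hair, keratinocytes, adipocytes, red cells and Schwann cells. Adipocyte markers (8 genes) had a median of 425 CPM in radiated and 712 in control skin in week 4, red cell markers (5 genes) 65.6 and 71.0, Schwann cell markers (6 genes) 128 and 239, and keratinocyte markers 13859 and 21216. Gene coordinates come from GENCODE on GRCm38, promoters from RefSeq on GRCm38.p6.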

Additional observations from a re-analysis of the deposited data

Results flagged for a closer look

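The change of the radiated-to-control difference across weeks passed the interaction test for 6 members, with adjusted p-values of 0.000356 for Angpt2, 0.000552 for Pecam1, 0.00432 for Rgs5, 0.0109 for Vegfa, 0.0120 for Cdh5 and 0.0268 for Vwf. Their week 4 differences were 1.38, 1.18, 0.92, 0.87, 1.52 and 1.00 (log2), after -0.16, -0.41, -0.51, -0.50, -0.62 and -0.67 in week 1.

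In 5 of 80 gene and group combinations of 4 samples, 1 sample lay far from the other 3 by Dixon's criterion. Chance alone flags about 1 in 20 combinations, and 5 of 80 is near that share. Lyve1 was at 103 CPM in radiated sample 4 of week 1, while the others were at 22.3 to 31.4, and without it the week 1 difference of 0.20 became -0.55. Lyve1 was at 97.3 CPM in radiated sample 1 of week 2, with the others at 44.4 to 51.5. Pecam1 was at 85.6 CPM in radiated sample 1 of week 2, with the others at 64.6 to 65.1. Vwf was at 133 CPM in control sample 4 of week 1, with the others at 57.0 to 65.3, and its call against sham did not hold without that sample. Rgs5 was at 101 CPM in control sample 4 of week 3, with the others at 68.6 to 73.3.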

How the results depend on the processing

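Of 1577 alternative values for 123 single genes and ratios, 1426 kept their direction and side of the threshold, 119 lost a call, 16 gained one and 16 changed sign. In simulated week 3 data with 4 samples a group, 16.2% of genes changed 2-fold were recovered, so a change of that size can be missed. Other depths and group sizes were not simulated. Where a count below moved, the cause was not tested.

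Members called in radiated against control skin were 7 with total-count scaling in week 3, against 3 by the main test. They were 2 to 5 without 1 library, the 5 without radiated sample 4. Over all genes, total-count scaling called 5324, the main test 4805 and the fit without radiated sample 4 5071. In week 2 DESeq2's Wald test and the replicate block each called 1 (Lyve1), and 0 to 1 without 1 library. Genes of the vessel lists called in week 1 were 6 by DESeq2 (423 of all genes) and 0 to 4 without 1 library, the 4 without radiated sample 1 (232 of all genes). In week 2 they were 6 by DESeq2, 8 with the block and 3 in a single fit, beside 734, 641 and 544 of all genes. Without 1 library they were 0 to 1. The interaction called 2 to 6 members without 1 numbered set.

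Against sham, DESeq2 called 2 members in radiated skin of week 2, beside 2482 of all 18036 genes. In week 3, 1 to 6 members were called without 1 library, beside 1134 to 3965 of all genes. In control skin, DESeq2 called 5, 3, 3 and 2 members in weeks 1 to 4. Over all genes it called 2974 of 17893, 1956 of 17855, 3594 of 17907 and 1855 of 17925. A single fit called 1 member in week 1 and 1 in week 3, beside 1119 and 2270 of all 19813 genes. No filter called 2 members in week 3, beside 2072 of 24549 genes. Without 1 library the counts of members ran 0 to 3, 0 to 1, 0 to 2 and 0 to 2. Sham and control samples with the same number are different mice, and the replicate block, which called 0 in weeks 1 and 4, pairs nothing there.

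The sign changed for values near 0: Cdh5 in week 2 with total-count scaling (0.025), and Prox1 in week 4 with no filter (-0.0030) and with the block (-0.0025). Without 1 library, the difference ran from -0.55 to 0.13 for Flt4 and from -0.55 to 0.61 for Lyve1 in week 1, from -0.25 to 0.067 for Cdh5 in week 2 and from -0.068 to 0.12 for Prox1 in week 4. The log2 ratio difference ran from -0.68 to 0.037 for Prox1 to Cdh5 and from -0.046 to 0.71 for Angpt2 to Cdh5 in week 3, and from -0.42 to 0.10 for Angpt2 to Cdh5 in week 4. The other calls lost or gained with the block stand beside the members and genes they touch. Of the list genes named, Sox18, Ecscr, Ankrd37, Egln1, Eng and Bnip3 in week 3 and Hey1, Egln3 and Bnip3 in week 4 lost their call without some single library (adjusted p up to 0.0961 and 0.127). Ratio tests could hardly pass by design with 4 samples against 4, also with a prior count of 0.5, and not at all in the other alternatives, since the exact paired permutation test cannot go below p = 0.125 and leaving out a numbered set leaves 3 samples against 3.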

Other observations

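The week by radiation interaction was read for the list genes too, as values. It was called for 12 of 24 general endothelial genes, 10 of 16 arterial, venous and sprouting genes, 6 of 11 lymphatic genes (Sox18 being counted as endothelial), 4 of 14 mural genes, 6 of 15 secreted factors and 4 of 14 hypoxia genes, against 15.6% of all genes tested.

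Control skin of week 4 held the members at uneven distances from control skin of week 3. Prox1 was at 10.7 to 13.3 CPM in week 4 and 3.56 to 7.20 in week 3, and Flt4 at 18.2 to 23.6 and 5.94 to 18.6. Lyve1 was at 30.5 to 42.9 CPM in week 4 and 55.8 to 151 in week 3. Vegfa was at 46.3 to 71.5 CPM in week 4 and 63.7 to 76.5 in week 3. No test of control weeks against each other was made.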
